A study of Mus musculus with 2 samples.

Results

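The glycolysis genes described here were 10 of the 31053 features of the count matrices, chosen by their symbols: the glucose transporter gene Slc2a1 and the enzyme genes Hk1, Gpi1, Pfkl, Aldoa, Tpi1, Pgk1, Eno1, Pkm and Ldha. The choice was made with earlier results of these data known. Each symbol had 1 row in the feature list except Aldoa, which had 2, and the second Aldoa row held 0 UMIs (unique molecular identifiers, each standing for 1 captured transcript). The genes were followed gene by gene in 2 single-cell RNA sequencing libraries of mouse lung, 1 labelled Normoxia and 1 labelled Hypoxia.

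Both libraries came from NG2tdT mice, in which a tamoxifen-inducible Cre driven by the NG2 promoter turns on tdTomato, a red fluorescent protein, in pericytes, some smooth muscle cells and their descendants. Per the design text of the series such mice received 2 mg of tamoxifen per 30 g of body weight and then rested for 7 days. The Normoxia mice were not treated further, and the Hypoxia mice breathed 10% oxygen for 21 days. The labels speak of 3 replicates and of sorted tdT cells, but each group had 1 matrix here, and pooling of animals is not stated. For its own mouse single-cell data the study describes wild-type mice after hypoxia, with CD45-positive and CD326-positive lung cells removed. Whether the present libraries were prepared in that way could not be settled. With 1 library per group there was no replicate check and no test, and all differences are between 1 library and another. Every interval is at 95% and covers counting error only.

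Glycolysis turns glucose into pyruvate in the cytoplasm and gives ATP without oxygen. Lactate dehydrogenase then reduces pyruvate to lactate, which restores the NAD that the pathway consumes. Endothelial cells are known to draw most of their ATP from glycolysis even where oxygen is plentiful. Many genes of the pathway are known targets of HIF1α, a hypoxia-inducible factor (HIF). HIF1α and HIF2α both bind DNA at short sequences with the core ACGTG or GCGTG.

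The promoters of 3 of the genes are shown because they hold ACGTG in a window free of annotated exons. The sequences are the 250 bases before a RefSeq transcript start on GRCm38.p6, written 5′ to 3′ on the strand of the gene, with capitals for ACGTG and its reverse complement CACGT. The Ldha window is chr7:46845554-46845803 on the plus strand, the Aldoa window chr7:126799255-126799504 on the minus strand and the Pgk1 window chrX:106186850-106187099 on the plus strand.
Ldha: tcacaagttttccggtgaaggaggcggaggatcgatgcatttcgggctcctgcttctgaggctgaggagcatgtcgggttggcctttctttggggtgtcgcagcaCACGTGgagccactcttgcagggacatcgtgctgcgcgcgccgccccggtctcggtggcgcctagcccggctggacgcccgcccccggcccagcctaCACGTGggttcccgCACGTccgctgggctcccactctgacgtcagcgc
Aldoa: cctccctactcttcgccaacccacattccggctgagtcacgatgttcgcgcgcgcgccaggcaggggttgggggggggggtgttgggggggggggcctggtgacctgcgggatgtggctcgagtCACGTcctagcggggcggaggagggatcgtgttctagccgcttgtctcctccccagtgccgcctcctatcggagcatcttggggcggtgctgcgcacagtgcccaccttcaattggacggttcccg
Pgk1: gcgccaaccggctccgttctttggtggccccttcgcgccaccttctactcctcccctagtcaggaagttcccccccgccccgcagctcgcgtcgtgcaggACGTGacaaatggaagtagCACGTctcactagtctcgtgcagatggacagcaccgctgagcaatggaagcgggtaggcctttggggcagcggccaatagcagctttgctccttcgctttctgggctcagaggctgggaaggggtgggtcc
Both strands were searched in 17 windows of the 10 genes, since several genes have more than 1 start. In Ldha the core lay at 3 places, of which the farther pair were CACGTG, read as the core on both strands. ACGTG on either strand was found in at least 1 window of 5 of the 10 genes (Slc2a1, Aldoa, Pgk1, Pkm and Ldha) and in 18.5% of all 27025 genes with windows of the same length. With GCGTG and its reverse complement CACGC included, the count was 8 of 10 genes, against 41.5% of all genes. Genes with more windows have more chances of a match. Counted by window, ACGTG was in 6 of 17 windows (35.3%), against 16.6% of all 32851. Either core was in 12 of 17 windows (70.6%), against 38.6%. Overlapping Aldoa windows share the same CACGT, which is counted in each. Gpi1 and Tpi1 had no match in these windows. A match is a run of letters and was not tested as a binding site.

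The Normoxia library held 373 cell barcodes and 1323874 UMIs, and the Hypoxia library 613 barcodes and 1989423 UMIs. After filters on genes and mitochondrial UMIs per cell, 293 and 453 cells were retained, with medians of 3135 and 2818 UMIs. Of 986 barcodes, 2 were shared by the libraries. Cspg4, the gene for NG2, had a UMI in 1 Normoxia and 2 Hypoxia cells, so this defining marker of the sorted lineage was near 0. Joint clustering without the glycolysis genes gave 14 clusters. Endothelial cell-like by their markers were clusters 1, 2, 7, 8 and 14, with 118 Normoxia and 218 Hypoxia cells, and classes of T or NK, B, macrophage or monocyte and fibroblast-like cells held at least 10 cells of each library. Cluster 1 led with general capillary genes (Plvap, Gpihbp1), cluster 8 with genes of aerocytes, the gas-exchange capillary cells (Car4, Ednrb), and cluster 2 with Ntrk2 and Cdk19. Cluster 2 came mostly from the Hypoxia library (15 Normoxia and 104 Hypoxia cells), so it may be that library rather than a cell type. Cluster 6, of 45 Normoxia and 6 Hypoxia cells, stayed unnamed, with Hhip, Rgs5, Acta2, Tagln and Kcnj8 among its leading genes. It had 7 fibroblast, 6 myofibroblast, 4 pericyte and 4 smooth muscle markers. Cluster 14, of 4 Normoxia and 6 Hypoxia cells, led with genes of lymphatic endothelium (Ccl21a, Mmrn1, Reln and Prox1). Its 25 and 47 UMIs of the glycolysis genes, 1513 and 1256 CPM, are counted with the class but get no ratio of their own, since each library had fewer than 10 cells.

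Cluster 7 went against its name. Of its cells, 10 of 21 in Normoxia and 14 of 20 in Hypoxia were endothelial by the markers of the single cell, against 57 of 58 and 65 of 68 in cluster 1 and all cells of clusters 2 and 8. One Normoxia cell of cluster 7 held 861 UMIs of 8 skeletal muscle genes, among them 234 of Acta1, 112 of Tnnt3 and 96 of Ckm, and had 0 of the 11 endothelial markers. This single cell carried 120 of the 748 glycolysis UMIs of the Normoxia endothelial cell-like cells, 101 of them from Aldoa, whose product is the muscle form of aldolase. Another Normoxia cell held 1615 UMIs of the alveolar type 2 gene Sftpc, and the club cell gene Scgb1a1 had 6854 and 14585 UMIs in the cluster. The 10 genes are therefore given with cluster 7 and for clusters 1, 2, 8 and 14 alone (97 Normoxia and 198 Hypoxia cells), a choice made after the data were seen.

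In clusters 1, 2, 8 and 14, the endothelial cell-like cells of the Hypoxia library held more transcripts of Pfkl, Ldha, Aldoa and Pkm than those of the Normoxia library, in CPM (UMIs of a gene relative to the summed UMIs of the same cells). The 10 genes summed to 419 UMIs or 1539 CPM (1395 to 1694) in Normoxia and to 1923 UMIs or 2817 CPM (2692 to 2945) in Hypoxia, a ratio of 1.83 (1.65 to 2.04). With cluster 7 the sums were 2038 and 2751 CPM and the ratio was 1.35 (1.24 to 1.47). Without the cell with skeletal muscle transcripts, and with the rest of cluster 7, the ratio was 1.60 (1.46 to 1.75). The sum was higher in Hypoxia in each form, and its size depended on this 1 cell and its cluster.

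**Figure D1:**
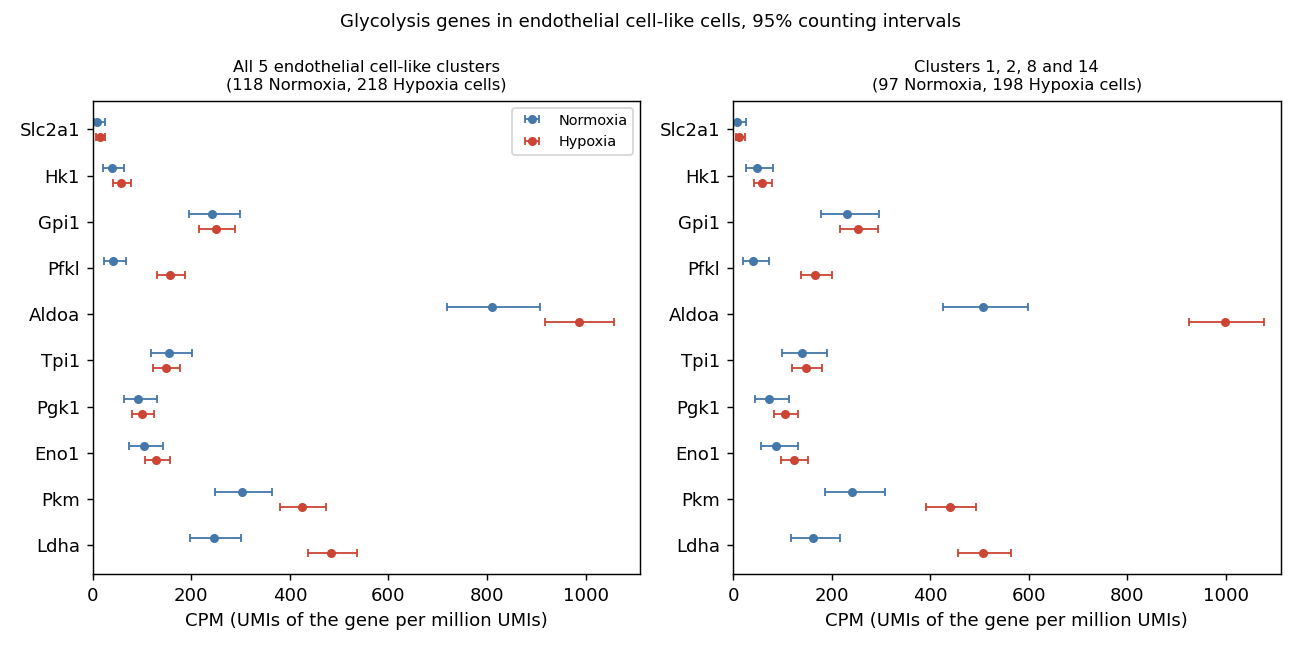
Level of each glycolysis gene in endothelial cell-like cells, in CPM on a linear axis, with all 5 clusters on the left and clusters 1, 2, 8 and 14 on the right. Points are the summed UMIs of 1 library in CPM and bars are 95% Poisson intervals. Aldoa in Normoxia is at 809 CPM on the left and 507 CPM on the right, and Ldha and Pfkl are higher in Hypoxia on both sides.

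Of the 10 genes, 9 had at least 20 UMIs over both libraries in these cells and entered the counts, and Slc2a1 did not. In clusters 1, 2, 8 and 14, 4 of the 9 (Pfkl, Aldoa, Pkm and Ldha) were at least 1.5-fold higher in Hypoxia, against 15% of the 6315 genes counted in the same way, and 0 were at least 1.5-fold lower, against 14.5%. Their median log2 ratio was 0.52, beside -0.0047 over all genes. With cluster 7, 3 of the 9 (Pfkl, Ldha and Hk1) were at least 1.5-fold higher, against 15.8% of 6949 genes, and the median was 0.32. Again 0 were lower by that much, against 13.3%.

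Slc2a1 (chromosome 4, 119108711 to 119137983, plus strand, GRCm38 as for all genes here) encodes GLUT1, which carries glucose across the cell membrane. It had 2 Normoxia and 9 Hypoxia UMIs in clusters 1, 2, 8 and 14, and 3 and 11 UMIs with cluster 7. The ratio of 1.79 had an interval from 0.371 to 17.1, so no difference could be detected at this depth.

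Hk1 (chromosome 10, 62268855 to 62379908, minus strand) encodes a hexokinase, which traps glucose as glucose 6-phosphate. It had 13 UMIs or 47.8 CPM in Normoxia against 40 UMIs or 58.6 CPM in Hypoxia in clusters 1, 2, 8 and 14, for a log2 ratio of 0.29 (-0.64 to 1.32). With cluster 7 the log2 ratio was 0.59 (-0.30 to 1.57), just over the 1.5-fold line, and both intervals held 0.

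Gpi1 (chromosome 7, 34201330 to 34230336, minus strand) encodes the isomerase that turns glucose 6-phosphate into fructose 6-phosphate. Its level was 231 CPM (178 to 296) from 63 UMIs in Normoxia and 253 CPM (217 to 294) from 173 UMIs in Hypoxia. The log2 ratio was 0.13 (-0.29 to 0.57), and 0.046 (-0.32 to 0.42) with cluster 7, so any difference in Gpi1 lay within counting error.

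Pfkl (chromosome 10, 77986947 to 78010083, minus strand) encodes the liver type of phosphofructokinase 1, the enzyme of the first committed step of glycolysis. It had 11 UMIs or 40.4 CPM (20.2 to 72.3) in Normoxia against 114 UMIs or 167 CPM (138 to 201) in Hypoxia. This was a ratio of 4.13 (2.22 to 8.51), the highest point estimate among the 9 genes, and cluster 7 moved it little, to 3.84 (2.24 to 7.08). The Hypoxia UMIs were spread over 84 of 198 cells, with at most 6 in 1 cell, and the Normoxia UMIs lay in 10 of 97 cells.

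Aldoa (chromosome 7, 126795234 to 126800751, minus strand) encodes aldolase A, which splits fructose 1,6-bisphosphate into 2 triose phosphates. In clusters 1, 2, 8 and 14 it had 138 UMIs or 507 CPM (426 to 599) in Normoxia against 682 UMIs or 999 CPM (925 to 1077) in Hypoxia, a ratio of 1.97 (1.64 to 2.38). With cluster 7 the Normoxia level was 809 CPM and the ratio 1.22 (1.07 to 1.40). The cell with skeletal muscle transcripts alone held 101 of the 297 Normoxia Aldoa UMIs, and without it the ratio was 1.83 (1.57 to 2.16).

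Tpi1 (chromosome 6, 124810586 to 124814296, minus strand) encodes the isomerase that interconverts both triose phosphates. It had 38 UMIs or 140 CPM in Normoxia against 101 UMIs or 148 CPM in Hypoxia, for a log2 ratio of 0.084 (-0.47 to 0.66). With cluster 7 the log2 ratio was -0.068 (-0.54 to 0.42), so the direction of Tpi1 was not settled. Pgk1 (chromosome X, 106187100 to 106203699, plus strand) encodes the kinase of the first ATP-forming step. It had 20 UMIs or 73.5 CPM in Normoxia against 72 UMIs or 105 CPM in Hypoxia, for a log2 ratio of 0.52 (-0.21 to 1.31), and 0.10 (-0.49 to 0.73) with cluster 7. All of these intervals held 0.

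Eno1 (chromosome 4, 150236721 to 150248879, plus strand) encodes enolase 1, which forms phosphoenolpyruvate. It had 24 UMIs or 88.2 CPM in Normoxia against 84 UMIs or 123 CPM in Hypoxia, for a log2 ratio of 0.48 (-0.19 to 1.20), and 0.32 (-0.23 to 0.90) with cluster 7. Both intervals held 0. The near-identical Eno1b had 1 UMI in the Hypoxia endothelial cell-like cells and 0 in Normoxia, and the other 4 copies searched for had 0 in both.

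Pkm (chromosome 9, 59656368 to 59679375, plus strand) encodes the muscle pyruvate kinases PKM1 and PKM2, which these 3′ counts cannot separate. It had 66 UMIs or 242 CPM (188 to 308) in Normoxia against 301 UMIs or 441 CPM (392 to 494) in Hypoxia, a ratio of 1.82 (1.39 to 2.41). With cluster 7 the ratio was 1.41 (1.13 to 1.76). Pkm was higher in Hypoxia in both forms.

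Ldha (chromosome 7, 46841475 to 46855627, plus strand) encodes the A chain of lactate dehydrogenase. It had 44 UMIs or 162 CPM (117 to 217) in Normoxia against 347 UMIs or 508 CPM (456 to 565) in Hypoxia, a ratio of 3.14 (2.29 to 4.41), and a ratio of 1.97 (1.57 to 2.51) with cluster 7. No Normoxia cell of clusters 1, 2, 8 and 14 held more than 2 Ldha UMIs, and the highest Hypoxia cell held 16.

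The clusters were then set side by side. The log2 ratio of the summed genes was 0.78 (0.56 to 1.02) in cluster 1. Cluster 2 was at 0.99 (0.60 to 1.40), cluster 8 at 1.46 (1.15 to 1.78) and cluster 7 at -0.59 (-0.84 to -0.34). Without the cell with skeletal muscle transcripts cluster 7 was at 0.024 (-0.25 to 0.30). Among the 10 Normoxia and 14 Hypoxia cells of cluster 7 that were endothelial by their own markers it was 0.41 (-0.044 to 0.87). The lower Hypoxia sum of cluster 7 was therefore not seen once that 1 cell was left out. The median cell was still lower in Hypoxia then, with 2056 CPM in Normoxia and 1829 CPM in Hypoxia.

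**Figure D2:**
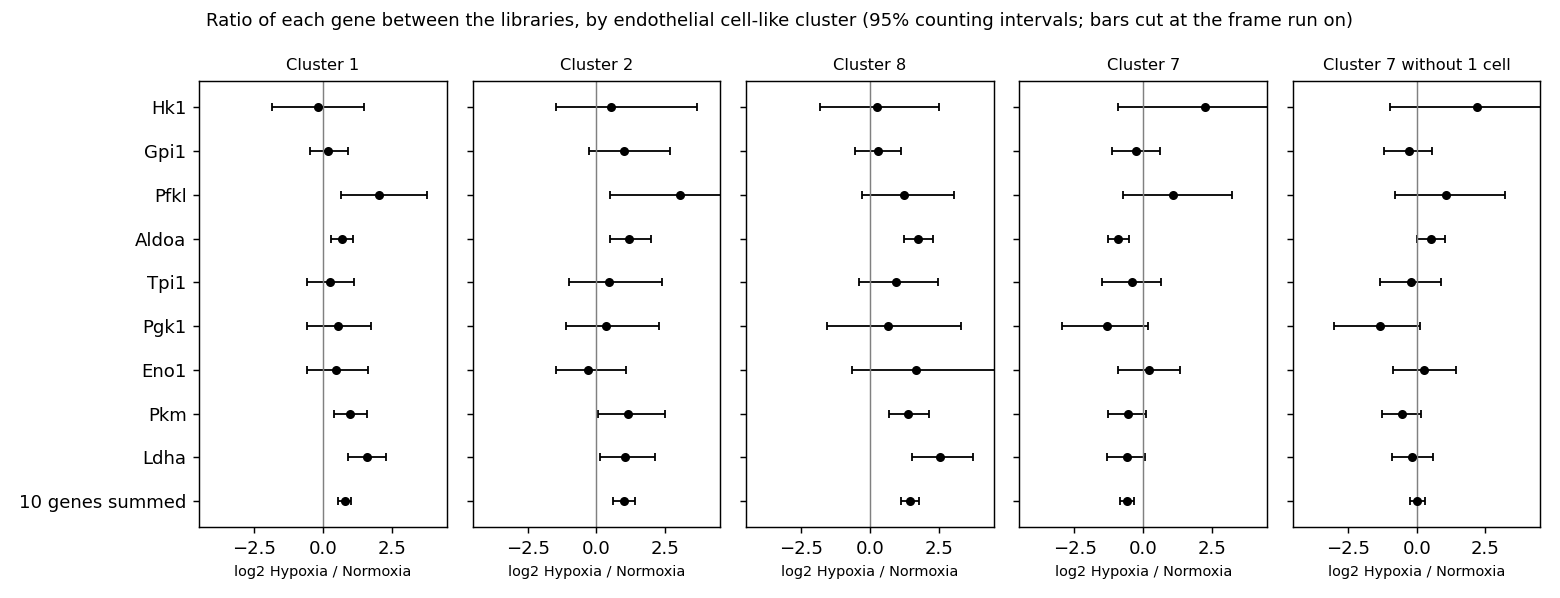
Log2 ratio of Hypoxia over Normoxia for 9 genes and for the sum of all 10, in endothelial cell-like clusters 1, 2, 8 and 7, with cluster 7 also shown without the cell with skeletal muscle transcripts. Points are ratios of summed CPM and bars are 95% counting intervals. Aldoa lies at 0.68, 1.19 and 1.75 in clusters 1, 2 and 8, and at -0.90 and 0.51 in cluster 7 with and without that cell.

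Cluster 8, the aerocyte-like cells, had the highest summed level in Hypoxia. Its 20 Normoxia cells held 111 UMIs of the genes, or 1685 CPM (1386 to 2030), and its 20 Hypoxia cells 382 UMIs, or 4629 CPM (4176 to 5117). Aldoa had 38 UMIs or 577 CPM in Normoxia against 160 UMIs or 1939 CPM in Hypoxia, a ratio of 3.36 (2.35 to 4.92). Ldha had 9 UMIs or 137 CPM in Normoxia against 66 UMIs or 800 CPM in Hypoxia, a ratio of 5.85 (2.90 to 13.4). Pkm had 22 and 72 UMIs, 334 and 872 CPM, a ratio of 2.61 (1.60 to 4.42). In this cluster 5 of the 6 genes with enough UMIs were at least 1.5-fold higher, against 17% of 1407 genes, and 0 were lower, against 15.9%. The interval left out 0 for Aldoa, Pkm and Ldha only. Pfkl (5 and 15 UMIs) and Tpi1 (7 and 17 UMIs) passed the minimum of 20 UMIs mainly through the Hypoxia library, and their intervals held 0. Pgk1 (3 and 6 UMIs) and Eno1 (2 and 8 UMIs) did not reach it. Slc2a1 was at 0 in both libraries.

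Within the Hypoxia library, cluster 8 was above cluster 1 by 0.81 (0.61 to 1.003) on the log2 scale for the summed genes and above cluster 2 by 0.80 (0.62 to 0.97). In the Normoxia library the same differences were 0.14 (-0.20 to 0.47) and 0.33 (-0.15 to 0.82), and both intervals held 0. Median depth in cluster 8 was 2902 UMIs in Normoxia and 3974 UMIs in Hypoxia. The part of depth in these differences was not tested.

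In cluster 1, with 58 Normoxia and 68 Hypoxia cells the largest of the evenly filled clusters, the summed genes had 1534 and 2642 CPM. Pfkl had 5 and 27 UMIs, a ratio of 4.13 (1.57 to 13.7). Ldha had 24 and 94 UMIs, a ratio of 3.00 (1.90 to 4.91). Of 8 genes with enough UMIs, 4 were at least 1.5-fold higher (Pfkl, Aldoa, Pkm and Ldha), against 13.4% of 3128 genes, and 0 were lower, against 16.5%.

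In cluster 2 the summed genes had 1342 CPM from 57 UMIs in Normoxia and 2661 CPM from 985 UMIs in Hypoxia. Pfkl had 1 Normoxia UMI and 71 Hypoxia UMIs, a ratio of 8.15 with an interval from 1.42 to 326. Here 5 of 9 genes (the same names as in cluster 1, and Gpi1) were at least 1.5-fold higher, against 23.7% of 3640 genes, and 0 were lower, against 21%. With 15 Normoxia cells, genes passed the minimum mainly through their Hypoxia UMIs. In cluster 7, 0 of 7 genes were at least 1.5-fold higher, against 19.1% of 1454 genes, and 3 were lower (Aldoa, Pgk1 and Ldha), against 27%. Without the cell with skeletal muscle transcripts 0 of these 7 were higher, against 18.6% of 1433 genes, and 1 was lower (Pgk1, 14 and 6 UMIs), against 25.8%.

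Values of single cells were ranked next. In cluster 1 the median cell had 1306 CPM of the summed genes in Normoxia and 2469 CPM in Hypoxia. The medians were 1147 and 2659 CPM in cluster 2, 1623 and 3898 CPM in cluster 8, and 2072 and 1829 CPM in cluster 7. In cluster 8 the Normoxia cells ran from 761 CPM (lower quartile) to 2059 CPM (upper quartile) and the Hypoxia cells from 2117 to 5741 CPM, so these middle ranges did not overlap, while single cells of the libraries overlapped in every cluster. The cell with skeletal muscle transcripts stood at 45283 CPM, where the next highest endothelial cell-like cell of Normoxia had 6019 CPM.

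**Figure D3:**
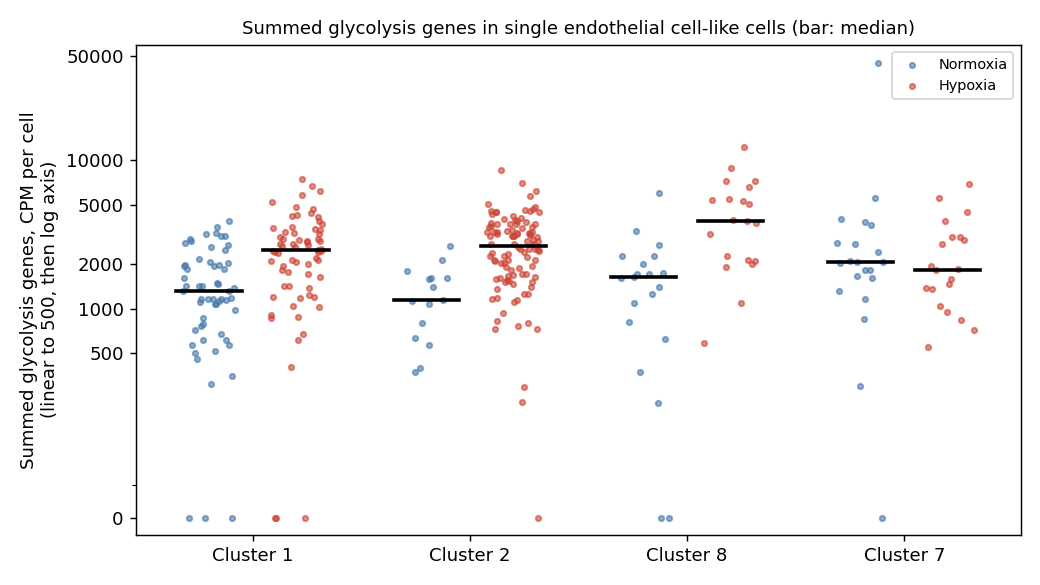
Summed CPM of the 10 glycolysis genes in each cell of endothelial cell-like clusters 1, 2, 8 and 7, by library, on an axis that is linear up to 500 and logarithmic above. Points are cells and black bars medians. The Hypoxia medians lie above the Normoxia medians in clusters 1, 2 and 8, and the point at 45283 CPM in cluster 7 is the cell with skeletal muscle transcripts.

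The share of cells with a UMI was compared after thinning each cell of clusters 1, 2, 8 and 14 to 1000 UMIs, which left out 4 Normoxia and 7 Hypoxia cells. Aldoa was found in 25 of 93 cells of the Normoxia library (26.9%, 18.2 to 37.1%) against 108 of 191 of the Hypoxia library (56.5%, 49.2 to 63.7%). Ldha was found in 20.4% (12.8 to 30.05%) and 38.2% (31.3 to 45.5%), and Pkm in 18.3% (11.02 to 27.7%) and 34.03% (27.3 to 41.2%). Thinned to 500 UMIs, Pkm was instead found in 14.4% of Normoxia and 12.6% of Hypoxia cells, so the direction of its share was not settled. Each depth was a single random draw, whose error the intervals leave out, so depth and draw cannot be told apart. Pfkl was found in 7.53% (3.08 to 14.9%) and 16.8% (11.8 to 22.8%). Without thinning the shares were 71.1% and 79.8% for Aldoa, 36.1% and 69.7% for Ldha, 43.3% and 65.2% for Pkm, and 10.3% and 42.4% for Pfkl, at median depths of 2530 and 2820 UMIs. All cells make these enzymes, so no cell type gave a background for free RNA. For comparison, T or NK cell-like cells, at 3866 and 3132 UMIs, had Aldoa in 1 of 13 and 20 of 75 thinned cells, or 69.2% and 61.3% of cells without thinning, and Pfkl in 0 of 13 and 4 of 75, or 7.69% and 9.33%.

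Other genes of the pathway were read from a fixed list. Of 21 further glycolysis enzymes and glucose transporters, 11 had 0 UMIs and 4 had enough UMIs in clusters 1, 2, 8 and 14. Gapdh, which encodes the dehydrogenase between the triose phosphates and the kinase Pgk1, had 99 UMIs or 364 CPM in Normoxia against 422 UMIs or 618 CPM in Hypoxia, for a log2 ratio of 0.77 (0.45 to 1.096). With cluster 7 it was -0.070 (-0.29 to 0.15), and the cell with skeletal muscle transcripts held 57 Gapdh UMIs. Pgam1, the mutase, was at 184 and 183 CPM, and Pfkp, the platelet phosphofructokinase, at 62.5 and 60.1 CPM. Bpgm, which makes 2,3-bisphosphoglycerate in red blood cells, had 39 UMIs or 143 CPM in Normoxia against 30 UMIs or 43.9 CPM in Hypoxia, for a log2 ratio of -1.71 (-2.44 to -0.98). The summed haemoglobin transcripts of the same cells were at 566 and 217 CPM, all 4 genes lower in Hypoxia, and their part in the Bpgm value was not tested.

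Genes that branch from or follow glycolysis were counted in the same cells. Of 17 citric acid cycle genes, all with enough UMIs in clusters 1, 2, 8 and 14, 2 were at least 1.5-fold higher (Ogdh and Dlst) and 1 lower (Suclg1, log2 ratio -0.76, -1.47 to -0.026), with a median of -0.087. The share of all genes past this size was 15% higher and 14.5% lower in these cells. Among 7 genes of lactate export and pyruvate entry with enough UMIs, 0 were higher and 3 lower by that size (Mpc1, Pdha1 and Dlat). Pdha1, a subunit of pyruvate dehydrogenase, had 22 and 30 UMIs, for a log2 ratio of -0.88 (-1.72 to -0.016), and Mpc1, a subunit of the mitochondrial pyruvate carrier, -0.66 (-1.305 to 0.0045). Of 7 regulators of flux 3 had enough UMIs, and by that size 0 were higher and 1 was lower (Arrdc4, whose interval held 0). Another of the 3 was Txnip, which lowers glucose uptake. Txnip had 790 CPM in Normoxia against 582 CPM in Hypoxia, for a log2 ratio of -0.44 (-0.68 to -0.20). With cluster 7 its log2 ratio was -0.28 (-0.50 to -0.048). Of 11 genes of the pentose phosphate, glycogen and other branches, 1 was higher (Gfpt1) and 2 lower (Rpe and Pck2), each with an interval that held 0. With cluster 7 the counts higher and lower were 2 and 3 of 17 for the citric acid cycle, 1 and 3 of 8 for lactate export and pyruvate entry, and 3 and 1 of 12 for the branches, against 15.8% and 13.3% of all genes. For the regulators of flux they were 1 (Pfkfb3) and 1 (Arrdc4) of 3, each with an interval that held 0.

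Of 10 oxygen-sensing genes 5 had enough UMIs in clusters 1, 2, 8 and 14. Of these 1 was at least 1.5-fold higher, against 15% of all genes, and 0 lower, against 14.5%. The 1 was Egln1, for a prolyl hydroxylase that marks HIF for degradation. It had 5 and 22 UMIs and a log2 ratio of 0.81 (-0.63 to 2.57), whose interval held 0. With cluster 7 the counts were again 1 (Egln1) and 0 of 5, against 15.8% and 13.3%. Epas1 for HIF2α was at 1829 and 1550 CPM in clusters 1, 2, 8 and 14, for a log2 ratio of -0.24 (-0.39 to -0.083), and 0.082 (-0.068 to 0.23) with cluster 7. Hif1a had 16 and 34 UMIs, for a log2 ratio of -0.24 (-1.14 to 0.72). Levels of these transcripts do not measure the proteins, which oxygen controls by degradation.

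Values that moved with the library were recorded beside these results. In clusters 1, 2, 8 and 14 the 18 dissociation stress genes summed to 6605 CPM in Normoxia against 4754 CPM in Hypoxia, and mitochondrial transcripts to 2.82% and 3.32% of UMIs. In cluster 8, where the glycolysis ratio was highest, the stress genes were at 5876 and 5998 CPM and mitochondrial transcripts at 2.28% and 2.44%. In cluster 1 the stress genes were at 7410 and 4552 CPM. Their part in the glycolysis values was not tested.

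The other cell classes gave smaller or less settled values. The summed genes in T or NK cell-like cells had 126 UMIs or 2105 CPM (1754 to 2506) in Normoxia against 527 UMIs or 2076 CPM (1903 to 2261) in Hypoxia, for a log2 ratio of -0.020 (-0.30 to 0.27). Of the 13 Normoxia cells, 1 held 57 of the 126 UMIs. This cell had 9 of the 11 endothelial markers, with 37 Cldn5 UMIs, and without the 3 cells of this class with at least 3 endothelial markers the log2 ratio was 0.35. Of 7 genes with enough UMIs 1 was at least 1.5-fold higher (Eno1), against 17.1% of all genes, and 1 lower (Gpi1), against 21.1%.

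B cell-like cells had 165 UMIs or 1124 CPM (959 to 1310) in Normoxia against 198 UMIs or 1420 CPM (1229 to 1632) in Hypoxia, for a log2 ratio of 0.34 (0.032 to 0.64). Pkm had 10 and 32 UMIs, for a log2 ratio of 1.75 (0.69 to 2.94), and Ldha 9 and 22 UMIs, 1.36 (0.19 to 2.67). Gpi1 was lower, with 55 and 30 UMIs and -0.80 (-1.49 to -0.13), and so was Tpi1, with 18 and 6 UMIs and -1.51 (-3.13 to -0.12). Thus 3 of 6 genes were at least 1.5-fold higher, against 27.7% of all genes, and 2 lower, against 13.3%. Median depth was 4114 and 1869 UMIs, and the summed ratio was -0.0035 when mitochondrial, ribosomal protein and haemoglobin transcripts were left out of the total.

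Macrophage or monocyte-like cells had 1676 CPM (1452 to 1925) in Normoxia against 1920 CPM (1756 to 2095) in Hypoxia, for a log2 ratio of 0.20 (-0.043 to 0.44). Of 7 genes 0 were at least 1.5-fold higher, against 25.4% of all genes, and 1 was lower (Tpi1), against 14.3%. Pfkl had 0 Normoxia and 11 Hypoxia UMIs. Fibroblast-like cells had 1416 CPM (1264 to 1582) and 1439 CPM (1211 to 1698), for a log2 ratio of 0.023 (-0.27 to 0.32), with 1 of 7 genes higher (Pkm), against 14.6%, and 1 lower (Pgk1, 20 and 2 UMIs), against 22.1%. No ratio is given for neutrophil-like cells (2 Normoxia and 28 Hypoxia cells, 13 and 65 UMIs of the genes), for type 2 innate lymphoid cell-like cells (17 and 5 cells, 124 and 29 UMIs) or for the unnamed cluster 6 (45 and 6 cells, 242 and 17 UMIs), since a library held fewer than 10 cells.

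**Figure D4:**
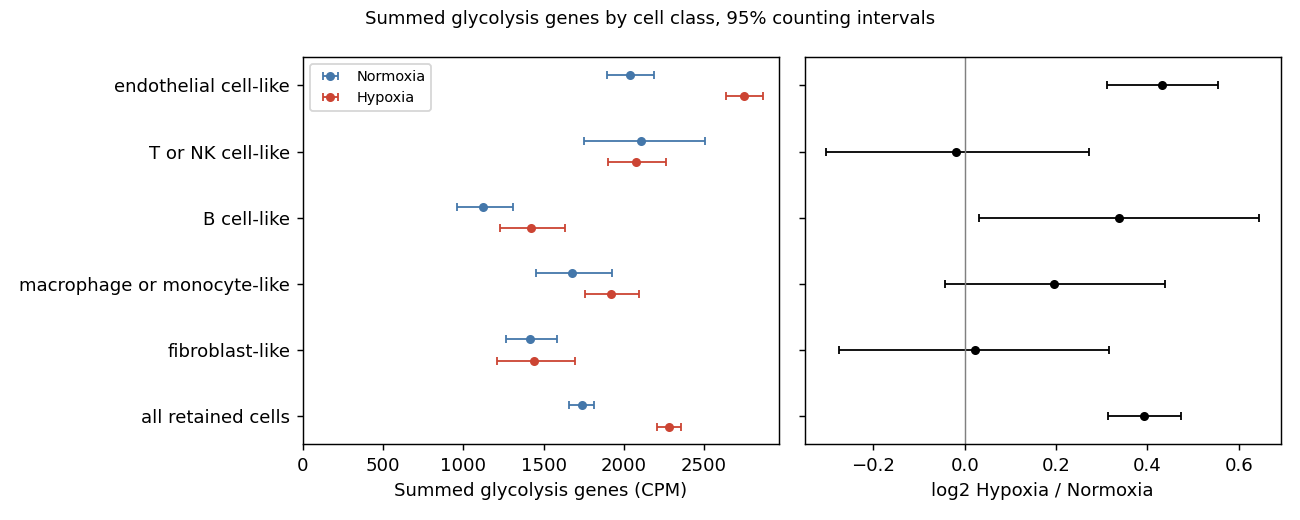
Summed level of the 10 glycolysis genes by cell class, in CPM on a linear axis on the left and as log2 ratio of Hypoxia over Normoxia on the right. Points are summed UMIs of 1 library and bars 95% counting intervals. Endothelial cell-like cells with cluster 7 go from 2038 to 2751 CPM, and the T or NK and fibroblast-like ratios lie at -0.020 and 0.023.

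Ranked by summed CPM in Normoxia, the type 2 innate lymphoid cell-like cells came first with 2355 CPM (1958 to 2807), followed by T or NK cell-like and endothelial cell-like cells, and each neighbour in the order overlapped the next within counting error. Without cluster 7 the endothelial cell-like level in Normoxia was 1539 CPM, below the 1676 CPM of macrophage or monocyte-like cells, and 57 of the 126 UMIs behind the T or NK cell-like level came from the 1 cell with endothelial markers. In Hypoxia the endothelial cell-like cells came first with 2751 CPM (2636 to 2870), followed by neutrophil-like cells with 2541 CPM (1961 to 3239), which overlapped them. The B cell-like cells came last in both libraries. In Hypoxia their 1420 CPM (1229 to 1632) overlapped the fibroblast-like 1439 CPM (1211 to 1698). Ldha was at 779 CPM (559 to 1056) in the Normoxia type 2 innate lymphoid cell-like cells and at 61.3 CPM (28.04 to 116) in the Normoxia B cell-like cells.

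Over all retained cells the summed genes had 1738 CPM in Normoxia against 2282 CPM in Hypoxia, for a log2 ratio of 0.39 (0.31 to 0.47). Of the 10 genes 3 (Pfkl, Pkm and Ldha) were at least 1.5-fold higher, against 15.8% of 9813 genes, and 0 were lower, against 15.5%. These sums mix a change in level with the larger share of endothelial cell-like and immune cells in the Hypoxia library, and cannot be told apart from it. Likeness was measured as Pearson's r over 13 pairs of class and library, on log2(CPM + 50), among 2020 genes with at least 200 UMIs. The genes nearest to the summed glycolysis genes were Anp32a (r = 0.86), Syf2 (0.82), Vps28 (0.80), Pdcd10 (0.80) and Snrk (0.79). Among the 10 genes, r with the sum of the others ran from -0.37 for Slc2a1 to 0.68 for Pkm. These points share libraries and depth, so the values are a description.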

How the data were processed

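The deposited values are UMI counts for each gene and cell, without normalization, in 1 matrix per group. Per the file headers these matrices were written by Cell Ranger 3.1.0, and the labels give genome build mm10. UMIs were counted by the authors, so amplification copies were already collapsed. The study's methods describe alignment with STAR for its single-cell data.

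Cells with 200 to 6000 genes and no more than 5% mitochondrial UMIs were kept, as in the study's methods. The study's results text for its mouse data gives a maximum of 4000 genes instead, which was run as an alternative. Cells of both libraries were clustered jointly with scanpy 1.11.5 on 2000 variable genes, without any gene of the lists used here, with 15 components, 15 neighbours and Leiden resolution 1.0. A cluster was named from at least 3 markers found in at least 25% of its cells at 2 times the median level over clusters. Doublets were not removed. Scrublet marked 1 Normoxia and 2 Hypoxia cells, and this share is too small to show that doublets are absent.

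UMIs of each gene were summed over the cells of a class in 1 library and scaled by the sum of all their UMIs (CPM). Sums have exact Poisson intervals, ratios exact conditional binomial intervals and shares exact Clopper-Pearson intervals, at 95% confidence. Ratios needed at least 20 UMIs over both libraries to be counted at 1.5-fold, and at least 10 cells per library. No test was made, because cells are not replicates. The ratio and its interval were tested on simulated Poisson counts at the depth of all retained cells. The simulation held no spread between cells or libraries, so it checks the calculation only. The 10 genes were all named, and the other lists were given by counts, with a gene named where it had at least 20 UMIs. The genes and lists were chosen with earlier results of these data known, and the forms without cluster 7, the cell with skeletal muscle transcripts or T or NK cell-like cells with endothelial markers, and both muscle gene lists, were added after the data were seen. Gene positions come from GENCODE M21 and promoters from RefSeq, matched by gene identifier and symbol, with 10 of 10 genes found in both. Both are on GRCm38, the assembly of mm10.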

Additional observations from a re-analysis of the deposited data

Results flagged for a closer look

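The summed glycolysis genes and Aldoa stood out because endothelial cell-like clusters pointed in opposite directions, a contrast that was not tested. The log2 ratio of the sum was 0.78, 0.99 and 1.46 in clusters 1, 2 and 8, and -0.59 in cluster 7. The log2 ratio of Aldoa was 0.68, 1.19 and 1.75 in clusters 1, 2 and 8, and -0.90 in cluster 7. In cluster 7, 1 Normoxia cell with 861 UMIs of skeletal muscle genes held 101 of the 159 Normoxia Aldoa UMIs. Without it the ratio in this cluster was 0.024 for the sum and 0.51 (0.021 to 1.02) for Aldoa, which then pointed the same way as in the other clusters.

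The barcodes left out by the filters, which no comparison used, also carried transcripts of the 10 genes. They summed to 610 CPM (509 to 725) over 80 Normoxia barcodes and to 1430 CPM (1315 to 1552) over 160 Hypoxia barcodes. Haemoglobin made up 55.2% of the UMIs of the former and 16.5% of those of the latter, and mitochondrial transcripts 3.46% and 8.85%. Their part in this difference was not tested.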

How the results depend on the processing

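No paired analysis was possible because each group was 1 library. Leaving out a replicate was not possible for the same reason. In the endothelial cell-like class the summed log2 ratio of 0.43 stayed above 0 under every alternative run. It was 0.66 without the cell with most UMIs of the summed genes in each library, 0.71 without a mitochondrial maximum, 0.81 at a maximum of 10%, 0.78 with 3000 variable genes and 30 components, 0.75 with classes from markers of single cells, 0.61 with clusters weighted equally, 0.87 without cluster 7 and 0.67 without the cell with skeletal muscle transcripts. In cluster 7 leaving out the top cell of each library gave -0.14 for the sum and turned Aldoa to 0.31. In clusters 1, 2 and 8 the sums stayed within 0.76 to 0.86, 0.98 to 1.13 and 1.45 to 1.48 under the other totals, scalings and weights and without the top cells. The B cell-like sum turned to -0.0035 with the total without mitochondrial, ribosomal protein and haemoglobin genes and to -0.33 with 3000 variable genes and 30 components. The B cell-like median moved to -0.20 there and to -0.13 at a minimum of 50 UMIs, where 0 genes were at least 1.5-fold higher. The T or NK cell-like sum moved to 0.52 without a mitochondrial maximum, to 0.33 with a gene maximum of 4000 or without cells marked by Scrublet, and to 0.35 without cells with endothelial markers. Its count of higher genes became 3 in these forms and without the top cells, and 2 with classes from single cells. The macrophage or monocyte-like count became 1, 2 or 3 under 7 alternatives. The fibroblast-like sum was -0.35 without a mitochondrial maximum, and its count was 0 under 7 alternatives. The share of all genes past this size is given for the main run only. There it was 17.1% in T or NK, 27.7% in B, 25.4% in macrophage or monocyte and 14.6% in fibroblast-like cells. The counts under the alternatives are therefore a description and not a result about these genes. The thinned share of endothelial cell-like cells with Pkm, higher in Hypoxia at 1000 UMIs, differed by -6.65 percentage points at 500 UMIs. At depths other than 1000 UMIs the difference was 13.1 and 20.3 points for Aldoa and 4.66 and 24.0 points for Pfkl, higher in Hypoxia throughout. Why these values moved was not tested. Depth limited Slc2a1, Hk1 and most values outside the endothelial cell-like class.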

Other observations

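Isozyme genes of muscle lay almost wholly in cluster 7. In the endothelial cell-like class, Eno3, which encodes the muscle enolase, had 22 Normoxia and 5 Hypoxia UMIs. Pgam2, the muscle phosphoglycerate mutase, had 16 and 12 UMIs, and Ldhb, the B chain of lactate dehydrogenase, 35 and 20 UMIs. In clusters 1, 2, 8 and 14 alone Eno3 had 1 and 2 UMIs, Ldhb 3 and 4 UMIs, and Pgam2 had 0 in both libraries.

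The cells behind the Pgam2 counts were few. One Normoxia cell held at least 5 of 8 skeletal muscle genes, among all 746 retained cells, with 234 of the 235 Acta1 UMIs and 80 of the 85 Pvalb UMIs. In cluster 7, 2 other Normoxia cells and 1 Hypoxia cell held at least 5 of 6 heart muscle genes, with 340 and 61 UMIs of Myl7, the atrial myosin light chain, and 0 Pecam1 UMIs in either library. They held 35 and 36 UMIs of the glycolysis genes, but only 8 and 3 of the Ldhb UMIs. Together with the skeletal muscle cell they held all 16 Normoxia and 12 Hypoxia Pgam2 UMIs of the endothelial cell-like class. Both muscle lists were written after these cells had been seen.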
